A study of Drosophila melanogaster with 9 samples.

Results

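The core of the fly JAK/STAT pathway and the genes that feed back on it were followed in sorted wing disc cells. The 10 genes were taken by symbol, for their known role in the pathway, from the 16492 symbols of the authors' table of raw counts. They are *hop* (the kinase), *dome* and *et* (receptors), *Stat92E* (the transcription factor), *Socs36E*, *Socs16D* and *Socs44A* (the SOCS family), and *Ptp61F*, *ken* and *Su(var)2-10* (other negative regulators). The rule uses no measured value, but it was set with results of these libraries known, and the study names *hop*, *dome* and *Socs36E* as raised, so calls of these genes are not independent evidence. All 10 were present in the table and all 10 passed the filter on low counts.

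In this pathway, secreted Unpaired ligands bind the receptor Domeless, the receptor-bound kinase Hopscotch phosphorylates the receptor and Stat92E, and phosphorylated Stat92E enters the nucleus and activates its targets. Several of those targets, among them *Socs36E* and *dome* itself, encode parts of the pathway, so that signaling changes the level of its own components. In the wing disc the pathway is active mainly in the hinge, and cells with more of its activity than their neighbors eliminate them as winners in cell competition.

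GFP-positive cells from the *dpp* domain, a stripe in the anterior compartment, were sorted from wing discs of wandering larvae of the third instar. All 9 libraries carried *dpp-gal4* and *UAS-gfp*, also the control (gfp, with nothing else driven), while STAT supercompetitors (hop) carried *UAS-hop* and Myc supercompetitors (Myc) carried *UAS-Myc* in addition. The labels give w/+ and no change on the second chromosome for every group. Each genotype has 3 libraries, each a pool from at least 60 discs, called by its genotype and a number from 1 to 3. The counts do not separate transcripts of a transgene from those of the gene's own locus, and the labels do not say whether the 3 libraries came from separate crosses, so p-values measure the spread between these pools.

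The libraries held 5110634 to 6104490 counts. Library Myc 1 stood apart from its group. Along the leading axis of a principal component analysis (the 500 genes of highest variance, 60.5% of the variance explained), scaled so that the gfp mean is 0 and the hop mean is 1, Myc 1 lay at 0.76, gfp 1 at 0.22 and the other gfp and Myc libraries at -0.23 to -0.058. *dm*, the Myc gene, stood at 233 to 259 CPM in gfp and at 538 to 774 CPM in Myc libraries, which checks that label in all 3. In hop libraries *dm* stood at 280 to 351 CPM, above every gfp library, without a call (log2 difference 0.41, edgeR adjusted p = 0.0762). Of the marker lists, one was for the *dpp* domain and anterior cells (*dpp*, *ptc*, *ci*). It summed to 1487 to 1682 CPM in gfp, 1635 to 2090 in hop and 1573 to 1597 in Myc libraries. Its members differed in hop against gfp. *ci* was called higher (log2 fold change 0.43, edgeR adjusted p = 0.0337) and *ptc* overlapped. *dpp* was lower in every hop library (194 to 198 CPM) than in every gfp library (221 to 246 CPM), without a call. The list for posterior cells (*en*, *inv*, *hh*) summed to 122 to 133 CPM in gfp, 94.6 to 112 in hop and 72.0 to 82.7 in Myc libraries, without overlap. In hop against gfp only *inv* was lower in every library, without a call (log2 difference -0.49, edgeR adjusted p = 0.07). There *en* (-0.03) and *hh* (0.17) overlapped. In Myc against gfp *inv* was called lower (log2 fold change -0.85, edgeR adjusted p = 0.00704), and *en* (-0.59) and *hh* (-0.34) were not called. The notum list (*pnr*, *eyg*, *tup*) summed to 107 to 131 CPM in gfp, 33.3 to 48.0 in hop and 96.1 to 135 in Myc libraries, and the hinge list (*zfh2*, *hth*) to 1850 to 1945, 2446 to 2821 and 1473 to 1823 CPM. No gene of any list was at 0 in all libraries. In pools of sorted cells, fewer cells of a type and less RNA per cell cannot be told apart.

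Against the control, STAT supercompetitors had more RNA of 4 of the 10 genes, the kinase *hop*, the receptor *dome*, the feedback inhibitor *Socs36E* and the repressor *ken*, and none was called lower. *hop* was 18.3-fold higher and the other 3 were 1.74-fold to 2.06-fold higher. In Myc supercompetitors none of the 10 was called against the control. Levels are CPM, counts scaled to a common library size after TMM normalization, and a gene was called where edgeR's quasi-likelihood test gave a Benjamini-Hochberg adjusted p under 0.05 over the 12741 genes tested. Of all genes tested, 6.52% were called in hop against gfp, 3.16% higher and 3.37% lower, beside 4 of the 10 pathway genes. The median log2 fold change was 0.45 over the 10 genes, 0.10 over the 9 without the driven *hop* and -0.02 over all genes.

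**Figure D1:**
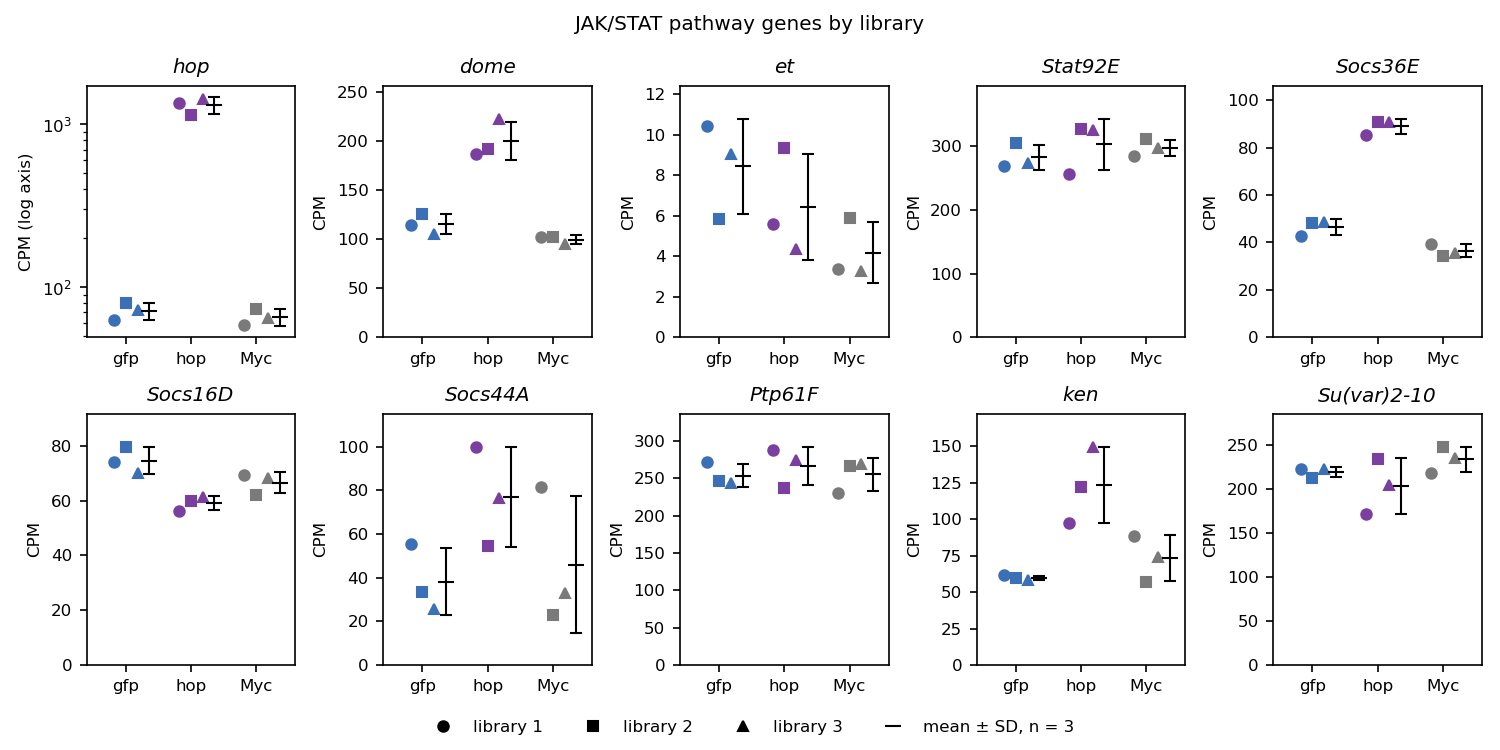
Level of each of the 10 genes in CPM (vertical axis, logarithmic for *hop* and from 0 for the others) in the 9 libraries, by genotype, with the mean and SD of 3 libraries in black. *hop*, *dome*, *Socs36E* and *ken* lie higher in all 3 hop libraries than in any gfp library, *Socs16D* lies lower, and the *Socs44A* level of Myc 1 (81.7 CPM) lies among those of the hop libraries.

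The kinase comes first, since it checks the label. *hop* (FBgn0004864, BDGP6 chromosome X from 11360930 to 11368098) stood at 62.6, 80.0 and 72.4 CPM in gfp 1, gfp 2 and gfp 3. It stood at 1359.6, 1145 and 1432 CPM in hop 1, hop 2 and hop 3. In Myc 1, Myc 2 and Myc 3 it stood at 58.6, 73.6 and 64.5 CPM. Every hop library was far above every other library, and the gfp and Myc ranges overlapped. The log2 fold change of hop against gfp was 4.19 ± 0.14 (SE, edgeR adjusted p = 2.06e-11), which had the smallest p of all genes tested. Within a library, *hop* RNA per kb of exon was 0.24 to 0.27 of that of *Stat92E* in gfp, 3.60 to 5.46 times that of *Stat92E* in hop and 0.21 to 0.24 of it in Myc libraries. The driven kinase transcript thus went from the less to the more abundant of the pair.

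The receptor *dome* (FBgn0043903, chromosome X from 19676061 to 19683518) encodes the signaling receptor, related to vertebrate cytokine receptors. It stood at 114.5, 125 and 105 CPM in gfp 1, gfp 2 and gfp 3 and at 187, 191 and 222 CPM in hop 1, hop 2 and hop 3. In Myc 1, Myc 2 and Myc 3 it stood at 102, 102 and 94.5 CPM. The 3 genotypes did not overlap, with hop above gfp and gfp above Myc. The log2 fold change of hop against gfp was 0.80 ± 0.12 (SE, edgeR adjusted p = 0.00175), and that of Myc against gfp was -0.21, with a 95% interval from -0.46 to 0.04 (adjusted p = 0.48). Leaving out any 1 library left *dome* called in hop against gfp.

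*et* (*eye transformer*, FBgn0031055, chromosome X from 19672312 to 19675891) encodes a shorter receptor that lacks the signaling part of Domeless and dampens the pathway. It lies 169 bases from *dome* on the same strand. Its counts were low, with 57, 34 and 59 in gfp 1, gfp 2 and gfp 3, 30, 53 and 25 in hop 1, hop 2 and hop 3, and 19, 28 and 20 in Myc 1, Myc 2 and Myc 3. These are 5.84 to 10.4 CPM in gfp, 4.38 to 9.36 CPM in hop and 3.26 to 5.90 CPM in Myc libraries, and the ranges of all 3 genotypes overlapped. In hop against gfp the log2 difference was -0.39, with a 95% interval from -1.19 to 0.41 (edgeR adjusted p = 0.559), so at this depth neither a fall of *et* nor a small rise could be told from no change. In Myc against gfp it was -1.02 (95% interval from -1.85 to -0.19, unadjusted p = 0.0188, adjusted p = 0.229). Its exons share 42 bases with those of *Zw* on the opposite strand, and the strand setting of the counting is not given in the sources used here.

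Per kb of exon, *dome* was 5.43 to 10.6 times as abundant as its neighbor *et* in gfp, 10.1 to 25.1 times in hop and 8.51 to 14.8 times in Myc libraries, and these ranges overlapped. The *dome* over *Stat92E* ratio did not overlap between genotypes. It was 0.41 to 0.46 in gfp, 0.62 to 0.78 in hop and 0.34 to 0.38 in Myc libraries.

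*Stat92E* (FBgn0016917, chromosome 3R from 20535323 to 20552311) encodes the only STAT of the fly. Its RNA stood at 269, 305 and 274 CPM in gfp 1, gfp 2 and gfp 3, at 257, 328 and 325 CPM in hop 1, hop 2 and hop 3, and at 285, 311 and 297 CPM in Myc 1, Myc 2 and Myc 3. The ranges overlapped in every comparison. The log2 difference of hop against gfp was 0.10, with a 95% interval from -0.15 to 0.35 (edgeR adjusted p = 0.63), and that of Myc against gfp was 0.07, with an interval from -0.17 to 0.32 (adjusted p = 0.856). The interval of hop against gfp holds no rise above 0.35 on the log2 scale, while *hop* rose by 4.19. These values are RNA, and the protein or its phosphorylation was not analysed here.

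The SOCS family split. *Socs36E* (FBgn0041184, chromosome 2L from 18138675 to 18152417), the feedback inhibitor that Stat92E induces, stood at 42.6, 48.4 and 48.5 CPM in gfp 1, gfp 2 and gfp 3. It stood at 85.3, 90.8 and 90.9 CPM in hop 1, hop 2 and hop 3, and at 39.5, 34.2 and 35.7 CPM in Myc 1, Myc 2 and Myc 3. Again the 3 genotypes did not overlap, with hop above gfp and gfp above Myc. The log2 fold change of hop against gfp was 0.94 ± 0.14 (SE, edgeR adjusted p = 0.0018), and leaving out any 1 library left it called. Of Myc against gfp it was -0.35 (95% interval from -0.65 to -0.05, unadjusted p = 0.0255), which did not pass after adjustment (adjusted p = 0.263).

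*Socs16D* (FBgn0030869, chromosome X from 17820764 to 17827564), a further SOCS gene, had lower values in every hop than in every gfp library, without a call. Its levels were 74.1, 79.8 and 70.1 CPM in gfp 1, gfp 2 and gfp 3, 56.1, 60.0 and 61.3 CPM in hop 1, hop 2 and hop 3, and 69.3, 62.2 and 68.3 CPM in Myc 1, Myc 2 and Myc 3. The order was gfp above Myc above hop, with no overlap in any of the 3 comparisons. The log2 difference of hop against gfp was -0.33 (95% interval from -0.61 to -0.05, unadjusted p = 0.0221, edgeR adjusted p = 0.129), and its adjusted p was 0.0985 or more in all 19 alternative fits. *Socs36E* was thus 0.81 to 0.97 times as abundant as *Socs16D* per kb of exon in gfp, 2.08 to 2.13 times in hop and 0.73 to 0.80 times in Myc libraries. As a share of the sum of the pair per kb, *Socs36E* made up 44.6 to 49.3% in gfp, 67.5 to 68.0% in hop and 42.3 to 44.4% in Myc libraries. With *Socs44A* added to the sum, its share overlapped between all genotypes. It was then 21.2 to 32.9% in gfp, 27.0 to 38.3% in hop and 16.2 to 27.9% in Myc libraries.

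**Figure D2:**
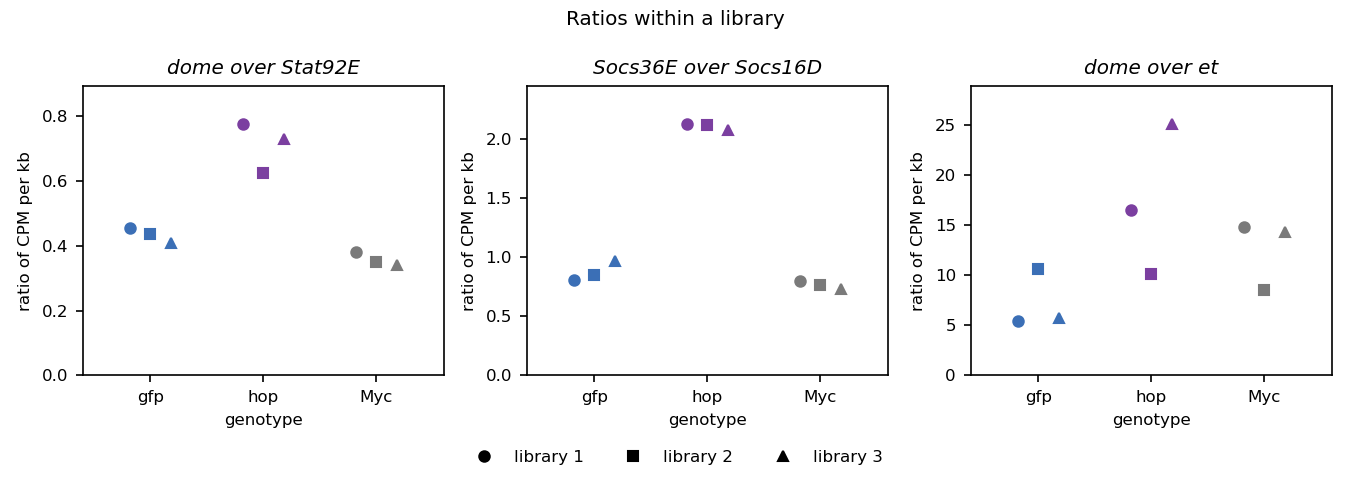
Ratio of the CPM per kb of exon (vertical axis, from 0) of *dome* to *Stat92E*, *Socs36E* to *Socs16D* and *dome* to *et* in each library, by genotype. The first pair of ratios is higher in all 3 hop libraries than in the other 6, with *Socs36E* over *Socs16D* at 2.08 to 2.13, while *dome* over *et* overlaps between genotypes.

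*Socs44A* (FBgn0033266, chromosome 2R from 8127575 to 8129476), the last of the SOCS genes, varied widely within genotypes, most in the Myc libraries. It stood at 55.2, 33.5 and 25.8 CPM in gfp 1, gfp 2 and gfp 3 and at 100.02, 54.4 and 76.4 CPM in hop 1, hop 2 and hop 3. In Myc 1, Myc 2 and Myc 3 it stood at 81.7, 23.0 and 33.1 CPM. The highest gfp library and the highest Myc library were gfp 1 and Myc 1, the libraries that lay nearest to the hop group of their genotypes on the leading axis. The log2 difference of hop against gfp was 1.01, with a 95% interval from -0.13 to 2.16 (edgeR adjusted p = 0.255), a point estimate close to that of *ken* (1.04) with an interval that holds 0. It passed in 4 of 19 alternative fits, among them those without Myc 1 (1.05, adjusted p = 0.0262), with the 6 hop and gfp libraries alone (1.02, adjusted p = 0.0364) and without both gfp 1 and Myc 1 (1.42, adjusted p = 0.000428), a choice made after seeing the data. Whether the RNA composition that sets gfp 1 and Myc 1 apart takes part in the spread of *Socs44A* was not tested.

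The 2 deposited tables differ on *Socs44A*. The raw table gives it 302, 195 and 168 counts in gfp 1, gfp 2 and gfp 3, 538, 308 and 436 in hop 1, hop 2 and hop 3, and 457, 109 and 203 in Myc 1, Myc 2 and Myc 3. The reads recovered from the authors' normalized table, which was made against an annotation with other symbols, are 142, 114 and 109, then 261, 175 and 232, then 225, 55 and 114 in the same order. These are 47.0 to 64.9% of the raw counts. In BDGP6 its exons share 123 bases, 6.7% of their length, with *Pbp49* and *CG42516* on the opposite strand. The raw table lists neither symbol, and the normalized table lists both at 0 in all libraries. With the recovered reads the log2 difference of hop against gfp was 0.98 (adjusted p = 0.144), so the lack of a call did not turn on the table. The other 9 genes differed between the tables by at most 2 reads in any library. The level of *Socs44A* relative to other genes is uncertain by this gap.

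**Figure D3:**
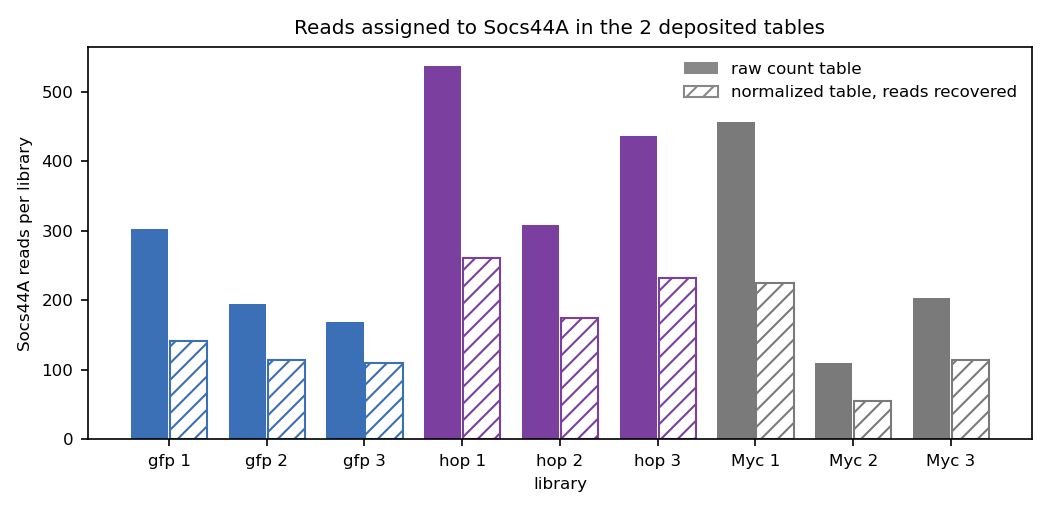
Reads assigned to *Socs44A* in each library (vertical axis, from 0) in the raw count table (filled bars) and as recovered from the normalized table (hatched bars). The recovered reads are 47.0 to 64.9% of the raw counts, and both tables place Myc 1 with 457 counts or 225 reads well above Myc 2 and Myc 3.

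Of the remaining negative regulators, *ken* rose and the phosphatase and the PIAS gene did not pass the test. *ken* (*ken and barbie*, FBgn0011236, chromosome 2R from 23870273 to 23877442) encodes a zinc-finger repressor that binds near a subset of Stat92E targets and holds them down. It stood at 61.5, 59.4 and 58.5 CPM in gfp 1, gfp 2 and gfp 3 and at 97.8, 122 and 149.99 CPM in hop 1, hop 2 and hop 3. In Myc 1, Myc 2 and Myc 3 it stood at 88.8, 56.9 and 74.2 CPM. The gfp libraries were within 3 CPM of each other, all hop libraries lay above them, and Myc 1 lay between the other Myc libraries and hop 1. The log2 fold change of hop against gfp was 1.04 ± 0.17 (SE, edgeR adjusted p = 0.00393), and it stayed called in all 19 alternative fits, with an adjusted p of at most 0.0374. In Myc against gfp it was 0.30 (95% interval from -0.07 to 0.67, adjusted p = 0.503).

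*Ptp61F* (FBgn0267487, chromosome 3L from 1342493 to 1475257) encodes a tyrosine phosphatase that acts on Hop and Stat92E. It stood at 271, 246 and 243 CPM in gfp 1, gfp 2 and gfp 3, at 287, 237 and 275 CPM in hop 1, hop 2 and hop 3, and at 230.1, 267 and 269 CPM in Myc 1, Myc 2 and Myc 3. All ranges overlapped. The log2 difference of hop against gfp was 0.07, with a 95% interval from -0.17 to 0.31 (edgeR adjusted p = 0.739).

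*Su(var)2-10* (FBgn0003612, chromosome 2R from 9116122 to 9122000) encodes the fly PIAS protein, a SUMO ligase that restrains Stat92E. It stood at 223, 213 and 223 CPM in gfp 1, gfp 2 and gfp 3, at 172, 234 and 204 CPM in hop 1, hop 2 and hop 3, and at 218, 248 and 235 CPM in Myc 1, Myc 2 and Myc 3. Library hop 1 was the lowest of the 9 and the ranges overlapped. The log2 difference of hop against gfp was -0.11, with a 95% interval from -0.37 to 0.14 (adjusted p = 0.608).

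In Myc against gfp, edgeR called 0 of the 10 genes, beside 2.86% of all genes tested, and DESeq2 also called 0. At an unadjusted p under 0.05 edgeR had 2 of the 10, *et* and *Socs36E*, both with lower values in Myc libraries. Of the 12741 genes tested, at least 1620 and fewer than 2145 were under this threshold in the same comparison. The median log2 difference of the 10 genes was -0.06, beside -0.04 over all genes. The comparisons of hop and of Myc with gfp share the 3 control libraries. The groups did not overlap for 5 of the 10 genes in hop against gfp (31.3% of all genes tested), for 3 in Myc against gfp (21.2%) and for 5 in hop against Myc (24.6%). The 3 of Myc against gfp were *dome*, *Socs36E* and *Socs16D*, each lower in Myc libraries and none of them called.

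The comparison of hop with Myc libraries tests directly whether the winner types differ. The same 4 genes, *hop*, *dome*, *Socs36E* and *ken*, were called higher in STAT than in Myc supercompetitors and none lower, beside 6.55% of all genes tested, 3.35% higher and 3.19% lower. The log2 difference was 4.32 ± 0.14 for *hop* (SE, edgeR adjusted p = 1.46e-11), 1.01 ± 0.12 for *dome* (adjusted p = 0.00014) and 1.29 ± 0.14 for *Socs36E* (adjusted p = 9.54e-05). The fold of *Socs36E* was 2.44 between the winner types and 1.91 between hop and gfp, and the gap between these folds is the lower value in Myc than in gfp libraries, which was not itself called. For *ken* the difference was 0.75 ± 0.17 (adjusted p = 0.0188), and this call was lost without hop 3 (adjusted p = 0.0843), without Myc 2 (0.0828), without Myc 3 (0.0727) and with only the 6 libraries compared (0.069). *Socs44A*, at 0.74 (95% interval from -0.40 to 1.88, adjusted p = 0.401), passed in 3 of 19 alternative fits, among them that without Myc 1 (1.46, adjusted p = 0.00944). The median log2 difference was 0.69 over the 10 genes, 0.63 over the 9 without *hop* and -0.02 over all genes.

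**Figure D4:**
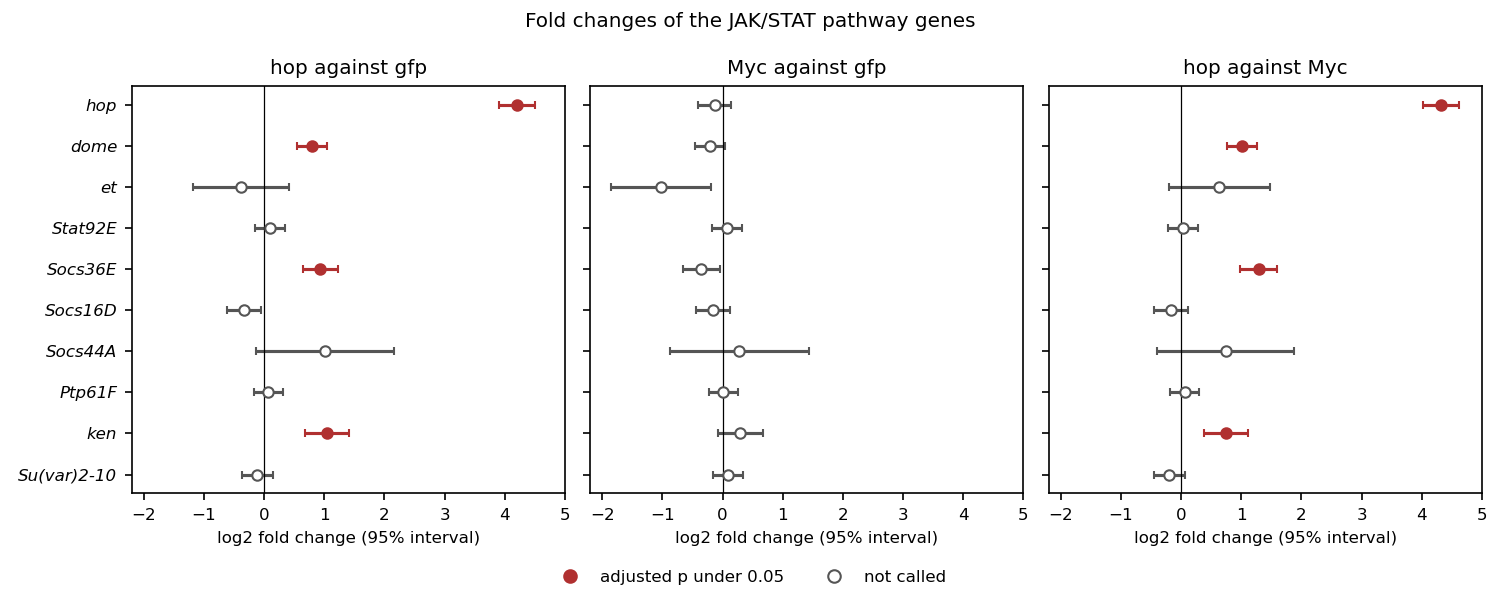
Log2 fold change (horizontal axis) of each of the 10 genes in the 3 comparisons of genotypes, with 95% intervals computed from edgeR's F statistic. Filled red points passed at an adjusted p under 0.05 (4, 0 and 4 genes), and the intervals of *et* and *Socs44A* are the widest.

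Per kb of exon, the levels of the 10 genes in the control ran from *Stat92E* (54.3 CPM per kb, mean of 3) through *Su(var)2-10* (43.6), *Ptp61F* (41.8), *dome* (23.6), *Socs44A* (20.7), *ken* (19.5), *Socs16D* (15.2), *hop* (14.2) and *Socs36E* (13.3) to *et* (3.50). The ranges of neighbors in this order overlapped between *Su(var)2-10* and *Ptp61F*, between *dome*, *Socs44A* and *ken* in turn, and between *Socs16D*, *hop* and *Socs36E* in turn, so these neighbors are not ordered beyond their spread. The ranges of *dome* and *ken*, and those of *Socs16D* and *Socs36E*, which are not neighbors, did not overlap. In STAT supercompetitors *hop* led with 259.6 CPM per kb, followed by *Stat92E* (58.2). *Ptp61F* (43.9), *Socs44A* (41.8), *dome* (41.1), *Su(var)2-10* (40.4) and *ken* (40.2) overlapped in turn, and *Socs36E* (25.4), *Socs16D* (12.1) and *et* (2.67) followed without overlap. By these exon lengths, *Socs36E* stood below *Socs16D* in the control and above *Socs16D* in STAT supercompetitors. The lengths of the transcripts present were not measured, and the order between genes depends on them. In Myc supercompetitors *Stat92E* led (57.1), and *Socs16D* (13.6), *hop* (13.0), *Socs36E* (10.4) and *et* (1.74) were again the lowest, with an overlap only between *Socs16D* and *hop* among these.

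Over the 9 libraries, the log2 CPM of *Socs36E* followed that of *dome* (Pearson's r = 0.97) and *hop* (0.96) most closely among the 10 genes, then *ken* (0.81) and *Socs44A* (0.60). It was unlike *Stat92E* (0.18), *Ptp61F* (0.16) and *et* (0.21), and ran against *Socs16D* (-0.60) and *Su(var)2-10* (-0.59). Outside the 10 genes the highest correlations were those of *osp* (0.99), the Wingless receptor gene *fz2* (0.99), *zfh2* (0.98), *CG15744* (0.98) and the GATA factor gene *grn* (0.97). The mean level of *fz2* was 439 CPM in gfp, 682 in hop and 355 in Myc libraries, and that of *grn* was 137, 326 and 116 CPM. These values describe 9 libraries in which the groups differ, and the libraries share their genotypes, so they carry no test.

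Of 20 other genes of the pathway, chosen for their role, 18 were tested. In hop against gfp 3 were higher, 0 lower and 15 not called, beside 3.16% of all genes higher and 3.37% lower. The 3 were *wdp* (0.63 ± 0.17, log2 fold change ± SE, edgeR adjusted p = 0.0393), which encodes a membrane protein that promotes turnover of Domeless, *E(bx)* (0.39 ± 0.11, adjusted p = 0.0386), a subunit of the NURF chromatin remodeler, and the gene of heterochromatin protein HP1 (0.51 ± 0.12, adjusted p = 0.0209). The level of *wdp* was 54.0 to 64.4 CPM in gfp and 79.3 to 107 CPM in hop libraries. The level of the HP1 gene was 216 to 251 CPM in gfp and 312 to 386 CPM in hop libraries. The calls were close to the threshold, and 0 of the 18 were called without gfp 2, without gfp 3 or without hop 3, and 1 without gfp 1, fits in which the calls over all genes fell from 831 to 140, 163, 199 and 514 in that order. In Myc against gfp (2.86% of all genes called) 0 of the 18 were called by edgeR. At an unadjusted p under 0.05 were 4 of the 18, beside at least 1620 and fewer than 2145 of the 12741 genes tested. In hop against Myc (3.35% of all genes higher) 1 was higher, the glypican gene *dally* (0.42 ± 0.11, adjusted p = 0.0329), at 336 to 409 CPM in hop and 263 to 296 CPM in Myc libraries.

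The ligand genes were near the lower limit of these libraries. *os*, which encodes Unpaired 1, had 33, 35 and 36 counts in gfp 1, gfp 2 and gfp 3, 11, 37 and 18 in hop 1, hop 2 and hop 3, and 19, 44 and 40 in Myc 1, Myc 2 and Myc 3. Its log2 difference of hop against gfp was -0.58 ± 0.45 (SE, edgeR adjusted p = 0.454), with a 95% interval from -1.53 to 0.38. *upd2* had 1 to 7 counts per library and *upd3* had 5 to 10, and neither passed the filter for testing.

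Of 11 known targets outside the 10 genes, several of which the study names as changed in these libraries, so that they are not independent evidence, 4 were higher and 3 lower in hop against gfp, 0 were called in Myc against gfp (3 at an unadjusted p under 0.05) and 4 were higher and 2 lower in hop against Myc. Of all genes tested 6.52%, 2.86% and 6.55% were called in these comparisons. In Myc against gfp, at least 1620 and fewer than 2145 of the 12741 genes tested were at an unadjusted p under 0.05. Higher against gfp were *chinmo* (log2 fold change 2.48), a BTB zinc-finger gene, *zfh2* (0.89), *wg* (0.83), which encodes Wingless, and *crb* (0.46), an apical polarity gene, with *chinmo*, *zfh2*, *wg* and *crb* also higher against Myc (1.86, 1.12, 1.10 and 0.49). Lower against gfp were *pnr* (-2.75), *eyg* (-0.91) and *zfh1* (-0.90), and of these *pnr* (-2.53) and *eyg* (-1.13) were also lower against Myc. The other targets were not called in any comparison. In hop against gfp their log2 differences were 0.24 for *vir-1*, -0.23 for *TotA*, 0.32 for *TotM* and 0.95 for *Diedel*. The number of targets called in hop against gfp was 4 without gfp 2, without gfp 3 or without hop 3. *zfh2* shares 2325 exon bases with *Tdg* on the opposite strand. The rise of *Socs36E* and *dome* thus lay beside a rise of *zfh2*, a hinge gene, and a fall of the notum genes *pnr*, *eyg* and *tup* (-1.27, edgeR adjusted p = 0.00624). *hth*, the other gene of the hinge list, stood at 1000.1 to 1053 CPM in gfp and 957 to 1094 CPM in hop libraries (log2 difference 0.01, edgeR adjusted p = 0.964). The haemocyte list (*Hml*, *NimC1*, *He*, *srp*) summed to 54.1 to 57.6 CPM in gfp, 64.5 to 77.9 CPM in hop and 48.1 to 60.5 CPM in Myc libraries. Of this list *Hml* was called higher in hop against gfp (log2 fold change 1.22, edgeR adjusted p = 0.00981). It stood at 10.3 to 15.4 CPM in gfp and 28.1 to 32.6 CPM in hop libraries. *NimC1* was also higher in every hop library, at 2.74 to 2.92 and 3.50 to 5.83 CPM, without a call (edgeR adjusted p = 0.429). *srp*, the most abundant of the list, stood at 37.8 to 41.5 and 27.9 to 46.1 CPM, and *He* was not tested. The list of adult muscle precursors (*twi*, *htl*, *Him*, *zfh1*) summed to 43.5 to 68.1 CPM in gfp, 22.4 to 38.5 in hop and 26.7 to 42.7 in Myc libraries. That of neurons and glia (*elav*, *repo*) summed to 72.8 to 83.4, 92.7 to 112 and 65.4 to 89.3 CPM in the same order. For both lists the hop and gfp ranges did not overlap, and for the muscle precursors the Myc range also lay below that of gfp. Of the muscle precursor list, *zfh1*, a target named above, stood at 31.8 to 46.3 CPM in gfp and 16.5 to 26.0 CPM in hop libraries. The others were not called in hop against gfp (*twi* -1.03, *htl* -0.48 and *Him* 0.64 on the log2 scale). The part of other cells in the levels of *Socs36E* and *dome* was not tested.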

How the data were processed

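RNA was sequenced from GFP-positive cells of the *dpp* domain in 9 libraries, 3 per genotype, grouped by the sample labels. The authors aligned the reads to dm6 with STAR, removed PCR duplicates with Picard and made the counts per gene with HTSeq from reads on exons. Versions, gene annotation and strandedness of this counting were not given in the sources used here. Labels and the study's methods differ on whether polyadenylated or total RNA was used, which was not resolved. The deposited signal values of the normalized table are counts that the authors divided by a size factor of each library. The factors were estimated from genes with nearly the same count in both deposited tables. Multiplied back, 100% lay within 0.02 of a whole read plus a small share of the count, so large counts were checked less strictly. A fit on these reads called 841 genes in hop against gfp, 347 in Myc against gfp and 763 in hop against Myc.

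The raw counts of 16492 symbols were filtered with filterByExpr (12741 left) and tested with edgeR 4.0.16 in R 4.3.3 (TMM, robust quasi-likelihood fit on all 9 libraries, Benjamini-Hochberg adjustment). Before use the fit was run on simulated counts that had the same spread for all genes and no outlying library. That run does not show how the fit handles a library such as Myc 1. Each SE was computed as the size of the log2 fold change over the square root of its F statistic. The 95% intervals were built from this SE, so they restate the unadjusted test. Lengths and coordinates are from BDGP6, and each length joins the exon bases of all transcripts of a gene. With 3 against 3 libraries an exact permutation test cannot go below p = 0.1, so none is given. Alternatives were RLE normalization, no filter, a minimum of 10 counts in each of the 9 libraries, limma-voom (limma 3.58.1), DESeq2 1.42.0, the compared libraries alone, a replicate block and each library left out in turn. The recovered reads, a fit without robust empirical Bayes and leaving out gfp 1 and Myc 1 together were added after seeing the data.

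The 10 genes and the lists were chosen with earlier results of these data known. Named are the 10 genes, all genes of the target list, each gene of the pathway list that was called in a comparison, and the 3 ligands. Also named are the 5 other genes whose log2 CPM (prior count 2) correlates best with that of *Socs36E*. Values of single marker genes (such as *dm* and *hth*) were added as checks. No genome sequence was used here, so no motif was searched.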

Additional observations from a re-analysis of the deposited data

How the results depend on the processing

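The calls of *hop*, *dome*, *Socs36E* and *ken* in hop against gfp, and of *hop*, *dome* and *Socs36E* in hop against Myc, passed in all 19 alternative fits, and no gene of the 10 passed in Myc against gfp in any of them. The number called was 4 to 5 in hop against gfp and 3 to 5 in hop against Myc, the changes being those of *Socs44A* and *ken*. The background moved more. For hop against gfp it was 831 genes, with 1346 by DESeq2, 1676 with the 6 libraries compared alone, 1876 without both gfp 1 and Myc 1, and 140 to 1948 with 1 library left out (140 without gfp 2, 163 without gfp 3, 199 without hop 3, 514 without gfp 1 and 1948 without Myc 1). For Myc against gfp it was 364, with 554 by DESeq2, 184 without both gfp 1 and Myc 1, and 124 to 467 with 1 library left out. For hop against Myc it was 834, with 311 with the 6 libraries alone, 2490 without both gfp 1 and Myc 1, and 270 to 2519 with 1 library left out. The cause was not tested. Of the other pathway genes 0 to 4, and of the targets 4 to 7, were called in hop against gfp with 1 library left out.

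The libraries share numbers, and deviations from the group means correlated between same-numbered libraries at 0.25, 0.071 and 0.10 in hop and gfp, 0.39, 0.15 and 0.094 in Myc and gfp, and 0.095, 0.18 and -0.14 in hop and Myc, so the numbers were not taken to pair them, although in hop and gfp each library correlated best with its own number. With the replicate block the counts were 1692, 584 and 1761 genes in the 3 comparisons, and of the 10 genes 5, 0 and 5, *Socs44A* being added at 1.04 (adjusted p = 0.00409) in hop against gfp and at 0.88 (adjusted p = 0.0106) in hop against Myc. Values that changed sign were all uncalled. In Myc against gfp, *Ptp61F* (0.01) was -0.0289 to 0.1055 and *Socs44A* (0.27) -0.4094 to 0.6357 with 1 library left out, and *Socs44A* was -0.0454 without both gfp 1 and Myc 1. In hop against Myc, *Stat92E* (0.03) was -0.0059 with at least 10 counts in every library and -0.0231 to 0.1388 with 1 library left out. In hop against gfp, *Su(var)2-10* (-0.11) was -0.1832 to 0.027 with 1 library left out. Depth limits *et* (19 to 59 counts) and the ligands most.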
